A study of Mus musculus with 30 samples.

Results

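Unsorted cell preparations from 2 regions of the mouse gut were compared, 3 libraries from colon (replicates 1 to 3) and 2 from small intestine (replicates 2 and 3). They are 5 of the 30 labelled libraries of the series and were chosen by their labels alone, as the unsorted libraries of undiseased colon and small intestine that have a column of values. Replicate 1 of unsorted small intestine was not analysed here. All mice carried the ColVI-cre transgene and the Rosa mTmG reporter on the C57BL/6 strain. In this model Cre is driven by regulatory sequence of a collagen VI gene and switches the cells that express it from a red to a green fluorescent membrane protein. Cells were freshly isolated, the labels call them intestinal mesenchymal cells, and the unsorted libraries hold the preparation as it was before any gate on green fluorescence. Libraries of GFP-negative cells from the same 2 tissues (3 each) and of unsorted colon from mice given dextran sulphate sodium (DSS), which injures the colonic lining (3 libraries), are set beside them. The labels give neither the age of the mice nor whether replicates came from separate animals, so p-values measure only the spread between these libraries, which may be technical.

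Tissue and library series coincide in this comparison. The unsorted colon libraries carry the numbers 4 to 6 in the labels and the small intestine libraries 97 and 98, and the values of each tissue were scaled by the authors in tables of their own. The 5 columns were therefore joined on gene identifier and rescaled together by the median ratio over the 14152 genes above 0 in all of them, out of 14860 shared genes. A difference between the tissues and a difference between the library series cannot be told apart in what follows. Levels are given as rescaled counts, and differences as colon minus small intestine on the log2(rescaled count + 1) scale, which understates the change of low genes. Each library held an estimated 2834000 to 4190000 reads, the highest of these values from a library whose read spacing was not resolved. In bulk RNA a lower level can mean fewer cells of a type or less RNA per cell, and these cannot be told apart.

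The small intestine and the colon share a common wall plan of epithelium, lamina propria, muscle, vessels, nerves and leukocytes, but differ in what each layer does. The small intestine absorbs fat, sugars and bile acids over villi and guards its crypts with Paneth cells that secrete defensins, lysozyme and lectins. The colon has no villi and few or no Paneth cells, recovers water and salt through colonocytes, and keeps a thick mucus layer made by goblet cells. Position along the gut is recorded in the mesenchyme by the Hox transcription factors, whose genes lie in clusters and are used in an order that follows the body axis, with the highest-numbered members towards the rectum.

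The preparations held RNA of more than mesenchymal cells. The immunoglobulin heavy chain gene Igha, a product of IgA plasma cells, was the highest gene in all 5 libraries, at 88072, 56881 and 100134 rescaled counts in colon and 140302 and 150886 in small intestine. Fibroblast genes were abundant in every library, with Col1a1 at 6411, 3377 and 14220 in colon and 1226 and 1556 in small intestine. Epithelial RNA was present too and varied most among the colon libraries. The summed level of 18 pan-epithelial genes was 2647 in colon library 1 against 16363 and 12873 in colon libraries 2 and 3, and 7577 and 4470 in small intestine. Colon library 1 was thus the poorest of the 5 in epithelial RNA, and its level lies below both small intestine libraries while those of the other colon libraries lie above them.

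**Figure D1:**
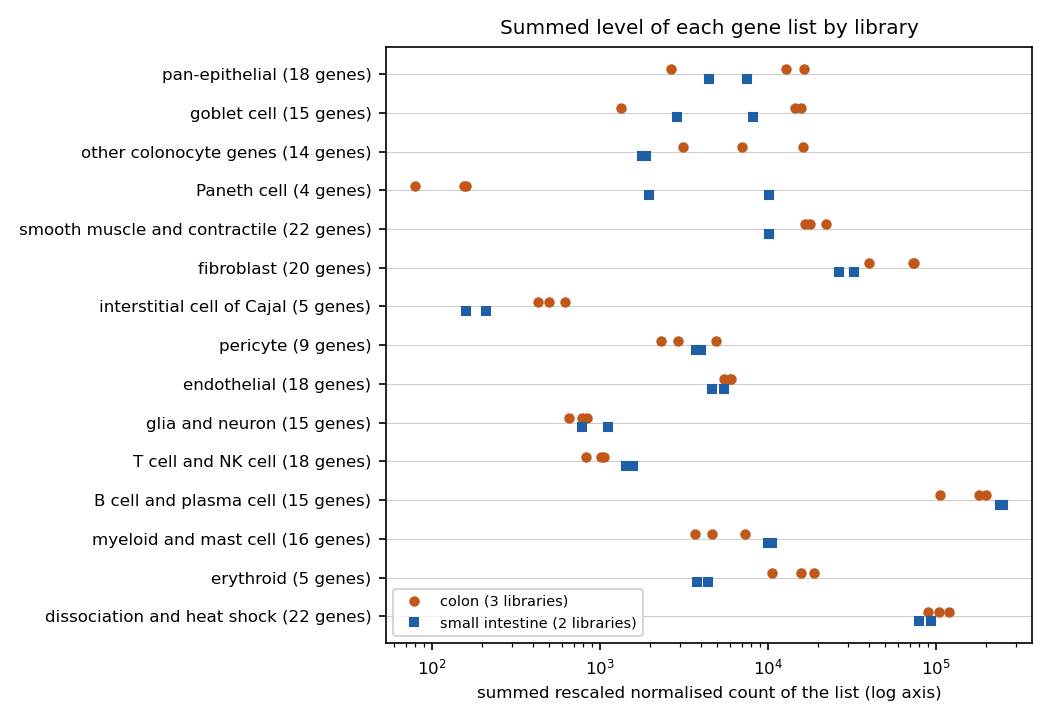
Summed rescaled counts of the genes of each cell type list (log axis), 1 point per library, for 3 unsorted colon and 2 unsorted small intestine libraries. Among the lists drawn, Paneth genes show the widest gap, at 80 to 161 in colon and 1965 to 10123 in small intestine, while pan-epithelial and goblet sums of colon library 1 fall below those of small intestine.

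Across the 13564 genes tested with limma, 1939 (14.3%) differed between the tissues at an adjusted p of 0.05, Benjamini-Hochberg adjusted over all genes tested. Of these, 1132 (8.35% of the genes tested) were higher in colon and 807 (5.95%) were lower. The values of the 2 groups did not overlap in 6515 genes, which is 48.0% of those tested, the background against which any lack of overlap below should be read. The split of the calls depended on the scaling, with 58.4% of them higher in colon as reported, 51.9% (1050 against 973) under upper-quartile scaling and 45.0% (899 against 1098) when totals were made equal. Equal totals moved the median log2 difference of all genes from 0.024 to -0.16. The number of calls also rested on single libraries. It was 402 without small intestine library 2, 569 without small intestine library 3 and 1102 without colon library 3, and the fits without a small intestine library assume that the lone remaining one varies like the colon libraries. Of 104 genes chosen for naming that passed, 62 lost their call without small intestine library 2, 54 without small intestine library 3 and 26 without colon library 3, while none changed direction. A call that passed in all 5 such fits is said below to have held, and the other calls named below were lost in at least 1 of them.

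The marker genes of 3 compartments behaved differently from each other. Fabp6, the ileal bile acid binding protein of enterocytes (chr11:43596049-43601540 in mm10), was at 2.5, 34.2 and 6.5 rescaled counts in colon and 7634 and 987.8 in small intestine. Both small intestine libraries stood far above all colon libraries, and they also differed widely from each other. The log2 difference was -8.14 (SE 1.31, adjusted p = 0.018), and without colon library 3 the call was lost (adjusted p = 0.069). Actg2, the actin of enteric smooth muscle, was at 175.1, 138.6 and 371.7 in colon and 50.5 and 68.1 in small intestine. The groups did not overlap, and the log2 difference was 1.81 (SE 0.47, adjusted p = 0.024). That call was lost without colon library 3 or either small intestine library (adjusted p up to 0.24). Agr2, a chaperone of mucus secretion in goblet cells, was at 175.1, 616.3 and 762.9 in colon and 150.2 and 116.6 in small intestine. Its log2 difference of 1.71 (SE 0.59) did not pass the threshold (adjusted p = 0.077), and its lowest colon value came from the library that was poorest in epithelial RNA.

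The upstream sequences of 4 genes are shown because these genes stand at the ends of the comparison and belong to gut cell types with a known place: Fabp6 to ileal enterocytes, Itln1 and Mmp7 to Paneth cells, and Cyp2c55 to colonocytes. Each is the 250 bases before an annotated RNA start, 5′ to 3′ on the gene's strand, from RefSeq on GRCm38.p6. Capitals mark matches, on either strand, to GATAA (the core letters of GATA factor sites) or TTTATNG (those of CDX factor sites). The reverse complement of TTTATNG can overlap the letters of a TATA box.
Fabp6, chr11:43601563-43601812, minus strand: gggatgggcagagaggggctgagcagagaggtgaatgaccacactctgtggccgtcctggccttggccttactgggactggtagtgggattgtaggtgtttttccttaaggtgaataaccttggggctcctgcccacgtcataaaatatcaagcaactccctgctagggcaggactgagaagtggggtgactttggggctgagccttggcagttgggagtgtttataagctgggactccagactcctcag
Itln1, chr1:171535295-171535544, minus strand: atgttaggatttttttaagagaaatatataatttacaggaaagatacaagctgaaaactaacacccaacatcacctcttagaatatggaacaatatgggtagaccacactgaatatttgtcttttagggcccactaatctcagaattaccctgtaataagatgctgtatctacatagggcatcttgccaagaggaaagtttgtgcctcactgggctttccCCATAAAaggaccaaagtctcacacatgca
Mmp7, chr9:7691840-7692089, plus strand: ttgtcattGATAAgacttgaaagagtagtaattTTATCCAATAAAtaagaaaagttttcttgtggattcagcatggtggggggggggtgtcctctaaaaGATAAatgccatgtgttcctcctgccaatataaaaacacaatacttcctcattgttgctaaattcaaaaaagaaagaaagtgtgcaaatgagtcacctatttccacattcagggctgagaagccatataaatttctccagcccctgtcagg
Cyp2c55, chr19:39006769-39007018, plus strand: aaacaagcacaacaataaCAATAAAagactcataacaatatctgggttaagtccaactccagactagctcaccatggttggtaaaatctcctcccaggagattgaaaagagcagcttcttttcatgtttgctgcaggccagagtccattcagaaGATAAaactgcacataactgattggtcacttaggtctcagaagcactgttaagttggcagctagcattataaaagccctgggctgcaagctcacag
The Mmp7 window holds 3 matches to GATAA and 1 to TTTATNG, and a second annotated window of that gene (chr9:7692091-7692340) holds none. The other windows hold fewer: that of Cyp2c55 holds 1 of each, that of Itln1 1 to TTTATNG and that of Fabp6 none. Over all 32851 promoters of the table, 22.6% hold GATAA and 9.8% hold TTTATNG. Among the 15 largest differences in each direction, a promoter was found for 10 genes higher in colon and 9 lower. GATAA was present in 3 of the 10 and 3 of the 9, and TTTATNG in 1 of the 10 and 4 of the 9. A match describes the letters only.

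Paneth cell genes were lower in colon where they passed. Itln1, a lectin of Paneth and goblet cells (chr1:171518122-171535294), was at 2.5, 5.7 and 20.3 in colon and 7591.5 and 1036.3 in small intestine. The log2 difference was -8.47 (SE 1.11, adjusted p = 0.0075). Lyz1, the lysozyme of Paneth cells (chr10:117287796-117292868), was at 73.9, 57.1 and 53.7 in colon and 2187 and 828 in small intestine, a log2 difference of -4.44 (SE 0.46, adjusted p = 6.3e-05). Both calls held. Mmp7, the protease that matures the defensins, was at 0, 4.1 and 5.7 in colon and 207.4 and 45.9 in small intestine, with a log2 difference of -4.93 (SE 0.94, adjusted p = 0.0059), and lost its call without small intestine library 2 (adjusted p = 0.16). So 3 of the 4 Paneth genes tested were lower in colon and none was higher, with a list median of -4.69 against 0.024 for all genes. A further 12 Paneth genes were listed in small intestine tables only and had no test. The defensins among them were high, with Defa24 (chr8:21734494-21735471) at 14750.9 and 3368.2, but defensin genes are near-identical copies and the authors' counting could divide reads among them.

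The antimicrobial Reg3 lectins followed the same direction. Reg3b was at 16.6, 62 and 22.8 in colon and 2508.8 and 1851.2 in small intestine, a log2 difference of -6.18 (SE 0.52, adjusted p = 2e-05) that held. Reg3g was at 5, 30.2 and 39 in colon and 634.2 and 518.8 in small intestine, a log2 difference of -4.88 (SE 0.75, adjusted p = 0.0041), and it lost its call without small intestine library 2 (adjusted p = 0.069). These were the 2 of 10 tested genes of the Reg and antimicrobial list that passed. Apoa1, an apolipoprotein of chylomicrons, was at 0, 2.4 and 0 in colon and 159.5 and 35.4 in small intestine, with a log2 difference of -5.66 (SE 0.97, adjusted p = 0.0025). Of 10 genes tested for fat uptake it alone was lower in colon, while Cd36, a fatty acid receptor gene, was higher at 236.5, 302.4 and 105.7 against 50.5 and 82.5 (log2 difference 1.59, adjusted p = 0.049, up to 0.37 with a library left out). A further 7 genes of that list were listed in small intestine tables only. Apoa1 lost its call without small intestine library 2, and its log2 difference lay between -6.73 and -4.59 with a library left out. Other lists of small intestinal function did not go this way. Of 13 brush border hydrolases, Ada, whose call held, and Enpp3 were higher in colon and 0 were lower (median -0.10). Of 5 nutrient transporters 0 passed (median 0.56), and of 4 bile acid genes only Fabp6 passed, the other 3 having log2 differences of 1.21 to 1.64. Ccl25, the chemokine of small intestinal enterocytes that attracts gut-homing T cells, was at 6.6, 7.3 and 4.1 in colon and 454.7 and 152 in small intestine, a log2 difference of -5.27 that held.

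Genes of colonocytes ran the other way. Of 12 tested genes of colonic ion and water transport, 3 were higher in colon and none lower (median 0.85). Car2, a carbonic anhydrase, was at 147, 349 and 341 in colon and 28 and 56 in small intestine, a log2 difference of 2.68 (SE 0.49, adjusted p = 0.0039, and 0.11 without small intestine library 2). Slc26a3, the chloride and bicarbonate exchanger, was at 43, 279 and 211 against 21 and 12, a log2 difference of 3.03 (SE 0.75, adjusted p = 0.028). Its call was lost without colon library 3 or either small intestine library (adjusted p up to 0.21). Aqp8, a water channel of surface colonocytes, was at 11.6, 57.1 and 90.3 in colon and listed at 0 in both small intestine libraries (adjusted p = 0.0024), and its call held. Of 14 other colonocyte genes, 7 were higher and none lower (median 2.31). In the fit of genes with no opposite-strand gene within 5000 bases, 3 of 6 transport genes and 1 of 6 other colonocyte genes (Saa1) were higher. Cyp2c55, a cytochrome of colonic epithelium (chr19:39007019-39042693), was at 33.2, 266.6 and 139.9 in colon and listed at 0 in small intestine (adjusted p = 0.00023), and this call held as well. Car1 (155.2, 1798.3 and 580.7) and the pentraxin Mptx1 (252.3, 3339.8 and 3028.2) were listed in colon tables only.

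Genes shared by all gut epithelium did not pass. By limma, 0 of the 18 pan-epithelial genes passed, with 2 at an unadjusted p under 0.05 (median 0.54). Epcam, the epithelial adhesion molecule gene, was at 176, 1844 and 965 in colon and 659 and 432 in small intestine (log2 difference 0.35, SE 0.95). The goblet list also had 0 of 15 genes past the threshold (median -0.01), with 2 higher and 1 lower at an unadjusted p under 0.05. Muc2, the gel-forming mucin of the mucus layer, was at 237, 5265 and 7681 in colon and 864 and 240 in small intestine, a log2 difference of 2.22 with a standard error of 1.67. In each of these genes the low colon value was that of library 1. Without that library 10 of the 18 pan-epithelial genes and 7 of the 15 goblet genes were higher in colon, and 1 goblet gene was lower. The colonocyte counts grew to 6 of 12 and 11 of 14. Calls rose over all genes too in that fit, from 1132 to 1655 higher and from 807 to 1186 lower, with 13584 genes tested. The part that the epithelial content of a library played in the differences of epithelial genes was not tested.

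The stem cell and endocrine genes that passed were lower in colon. Over all genes tested, 5.95% were lower. Of 11 tested stem and progenitor genes, Smoc2 (22, 112 and 85 in colon, 495 and 392 in small intestine, log2 difference -2.86) and Rnf43 (8, 33 and 24 against 156 and 81, log2 difference -2.50) were lower in colon. Without a small intestine library their adjusted p rose to 0.16 and 0.23. Both genes are active at the crypt base, and Lgr5, the stem cell receptor, did not pass (5, 9 and 12 against 25 and 13). Of 10 endocrine genes only Sst, the hormone somatostatin, passed, at 12, 10 and 55 against 162 and 103 (log2 difference -2.73, adjusted p = 0.025). In the fit of genes with no opposite-strand gene within 5000 bases, 0 of 4 stem and progenitor genes and 1 of 8 endocrine genes were lower. Among 18 regional transcription factors of the epithelium, Klf4, a factor of differentiated colonic cells, was higher in colon at 1516, 2615 and 1495 against 347 and 415 (log2 difference 2.25, adjusted p = 0.0054, up to 0.13 without a small intestine library). The Klf4 level of colon library 1, the library poorest in epithelial RNA, was close to that of colon library 3. Cdx2, the intestinal master factor, was at 7, 17 and 32 in colon and 44 and 25 in small intestine and did not pass.

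**Figure D2:**
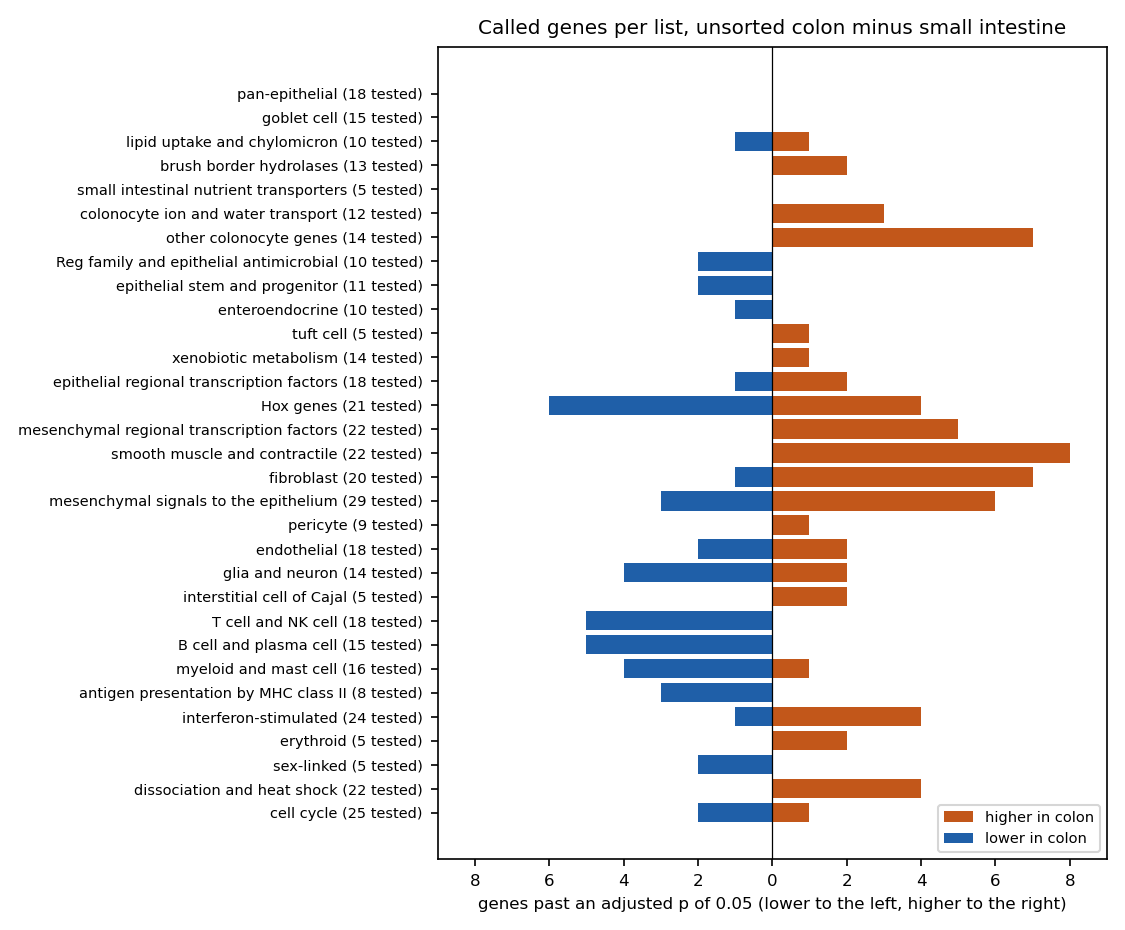
Number of genes of each list with at least 5 tested genes that were higher (right) or lower (left) in unsorted colon than in unsorted small intestine at an adjusted p of 0.05, with the number tested beside each list. Muscle, fibroblast and colonocyte lists hold calls mainly on the colon side, and the T cell, B cell and MHC class II lists on the small intestine side.

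Hox genes differed in both directions. Of 39 Hox genes in the list, 21 were tested, 4 were higher in colon and 6 lower, 9 were listed in colon tables only and 2 in small intestine tables only. Members of the highest number were among these 9. Hoxb13 was at 5, 257.6 and 160.2 in the colon libraries, Hoxd13 at 20.7, 88 and 61.8 and Hoxa13 at 16.6, 24.5 and 33.3, each lowest in the library poorest in epithelial RNA. For small intestine these were Hoxb8, at 91.7 and 49.8, and Hoxc5, at 14.6 and 18.3. Among the tested genes, Hoxa11 was at 141, 64 and 56 in colon and 0 and 1 in small intestine (log2 difference 5.73, SE 0.67, adjusted p = 0.00016). Hoxa10 (46, 53 and 52 against 11 and 3, log2 difference 2.99) and Hoxa9 (96, 87 and 101 against 37 and 5, log2 difference 2.63) were also higher in colon. Hoxa2, from the other end of the same cluster, was higher too, at 59, 45 and 84 against 3 and 3 (log2 difference 4.08).

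The Hox genes that were lower in colon lay in the Hoxc and Hoxb clusters. Hoxc8 (chr15:102990607-102994111) was at 5.8, 16.3 and 22 in colon and 277.9 and 259.4 in small intestine, a log2 difference of -4.27 (SE 0.55, adjusted p = 0.00033). Hoxc6 (0, 3 and 5 against 64 and 46, log2 difference -4.24) and Hoxc4 (1, 6 and 5 against 85 and 47, log2 difference -3.95) differed in the same direction. Hoxb5 (24, 13 and 22 against 198 and 121), Hoxb4 and Hoxb9 completed the 6 lower genes. Hoxa5 and Hoxa7 did not pass, with Hoxa7 at 134, 141 and 104 in colon and 112 and 100 in small intestine. The calls of Hoxa2, Hoxa11 and Hoxc8 held. Hoxa11 lies opposite the antisense gene Hoxa11os, which had a mean of 304.6 in colon and was listed in colon tables only. Without stated use of strand in the counting, reads from such partners cannot be told apart. Of the 7 tested Hox genes with no opposite-strand gene within 5000 bases, 1 (Hoxa9) was higher and 4 (Hoxb4, Hoxc4, Hoxc6 and Hoxc8) were lower.

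**Figure D3:**
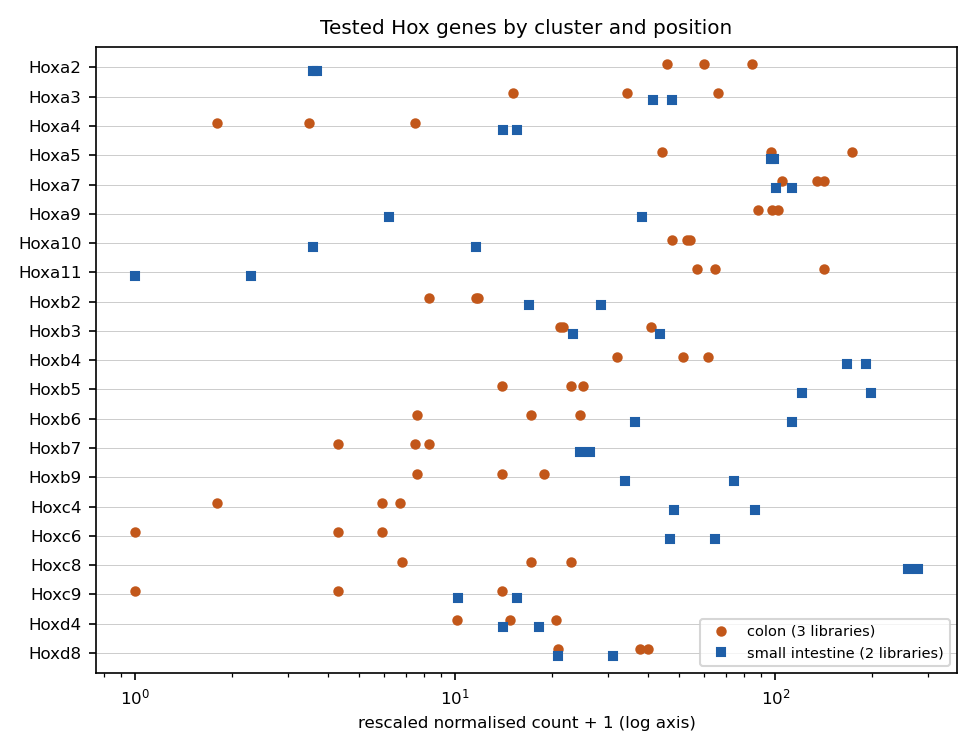
Level of each tested Hox gene in each unsorted library, as rescaled counts plus 1 on a log axis, ordered by cluster and number. Hoxa9, Hoxa10 and Hoxa11 lie higher in the 3 colon libraries and Hoxc4, Hoxc6 and Hoxc8 higher in the 2 small intestine libraries, while Hoxa7 overlaps.

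Smooth muscle genes were higher in colon where they passed. Of 22 contractile genes tested, 8 were higher and none lower (median 0.83). In the fit of genes with no opposite-strand gene within 5000 bases, only 5 of them were tested, and 3 were higher. Myh11, the heavy chain of smooth muscle myosin, was at 515, 3976 and 1331 in colon and 68 and 100 in small intestine, a log2 difference of 4.07 (SE 0.76, adjusted p = 0.011, up to 0.12 with a library left out). Tpm1, a tropomyosin, was at 3904, 6866 and 3365 against 332 and 558, a log2 difference of 3.38 (SE 0.48, adjusted p = 0.00069, and 0.054 without small intestine library 2). Acta2, the actin of muscle and myofibroblasts, was at 2490, 3059 and 2821 against 560 and 1298, a log2 difference of 1.70 (SE 0.48, adjusted p = 0.032), with a call lost in 4 of the 5 fits. Other muscle genes did not pass, such as the filament gene Des (333, 240 and 196 against 291 and 178) and the kinase gene Mylk (3578, 3062 and 2053 against 4676 and 3400). Of 5 tested genes listed for interstitial cells of Cajal, the pacemaker channel gene Ano1 (65, 133 and 124 against 40 and 20, log2 difference 1.83) and Ednra were higher in colon, and Kit was not. Ednra was at 488.4, 306.9 and 428.4 in GFP-negative colon and 269.2, 326.5 and 216.5 in unsorted colon, scaled together. Ano1 went the other way, at 17.8, 39 and 23.8 against 61.6, 128.2 and 121. In the fit of genes with no opposite-strand gene within 5000 bases, 0 of 2 of the listed genes passed.

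Several fibroblast genes were higher in colon. Col3a1, a fibrillar collagen gene, was at 11426, 7849 and 9205 in colon and 750 and 1370 in small intestine, a log2 difference of 3.21 (SE 0.48, adjusted p = 0.00093, and 0.069 without small intestine library 2). Col1a1 gave a log2 difference of 2.29 (SE 0.58, adjusted p = 0.021, up to 0.24 with a library left out), and Col1a2, Col6a2, the small proteoglycan Dcn, Mfap5 and the telocyte factor gene Foxl1 were also higher. Of 20 fibroblast genes, 7 were higher and 1 was lower (median 0.64). That one was the complement gene C3, at 1044, 379 and 586 in colon and 3523 and 1817 in small intestine (log2 difference -2.04, adjusted p = 0.021). The chains of collagen VI, whose regulatory sequence drives the Cre, did not move alike, with Col6a1 at 531, 395 and 730 against 226 and 685 (log2 difference 0.44) and Col6a3 at 1698, 767 and 505 against 2206 and 1901 (log2 difference -1.23), both short of the threshold. Postn, which encodes the matrix protein periostin and was named after its values were seen, was at 1607.4, 1756.7 and 1435.6 in colon and 62.5 and 98.3 in small intestine, a log2 difference of 4.33 (SE 0.41, adjusted p = 3.6e-05) that held. In the fit of genes with no opposite-strand gene within 5000 bases, 6 of 16 fibroblast genes were higher and 1 was lower, but none of the list's calls held.

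Signals from mesenchyme to epithelium differed in both directions. Of 29 genes tested, 6 were higher in colon, 3 were lower and the median was 0.71. Higher were the BMP ligands Bmp2 (430, 545 and 516 against 96 and 105, log2 difference 2.29) and Bmp4 (784, 409 and 1410 against 152 and 284, log2 difference 1.88), the EGF family ligands Ereg (388, 364 and 302 against 39 and 63, log2 difference 2.80) and Nrg1 (70, 51 and 77 against 11 and 3, log2 difference 3.35), and Fgf7 and Wnt5b. Lower were the R-spondin Rspo2 (0, 2 and 1 against 19 and 28, log2 difference -3.68), which potentiates Wnt signalling, and the Wnt inhibitors Dkk2 (8, 0 and 5 against 48 and 41, log2 difference -3.57) and Frzb (207, 61 and 111 against 370 and 381, log2 difference -1.73). Bmp4 (chr14:46383520-46390669) overlaps Gm15217 (chr14:46379414-46383608), which was listed for colon only. Gm15217 was at 747.7, 389.7 and 1396.6, close to Bmp4 in the same libraries, and its part in the Bmp4 level was not tested. The BMP antagonist Grem1 did not pass, at 202, 82 and 211 against 205 and 190. In the fit of genes with no opposite-strand gene within 5000 bases, 1 of 14 was higher (Bmp2) and 1 lower (Rspo2). The call of Ereg held, and that of Bmp2 was lost without small intestine library 2 (adjusted p = 0.069).

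Transcription factors of gut mesenchyme gave 5 calls of 22, all on the colon side. In the fit of genes with no opposite-strand gene within 5000 bases, only 3 of them were tested, and 1 was higher. Foxf1, the hedgehog-responsive factor, was at 497, 209 and 473 in colon and 40 and 81 in small intestine, a log2 difference of 2.66 (SE 0.49, adjusted p = 0.0039, and 0.12 without small intestine library 2). Foxl1 of subepithelial telocytes was at 99, 33 and 61 against 8 and 9 (log2 difference 2.64), and Twist2, Zeb1 and Pitx1 made up the rest. Pitx1, known best from the hindlimb, was at 145, 37 and 103 against 16 and 7 (log2 difference 2.88). The gut-wide factor Nkx2-3 did not pass, at 746, 280 and 373 against 336 and 459. Foxf1 lies beside the opposite-strand RNA gene Fendrr, whose mean was 136.7 in colon and 73.4 in small intestine.

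Vessel and nerve genes gave calls in both directions. The shares over all genes tested were 8.35% higher and 5.95% lower, and the endothelial counts lay near them. Of 18 endothelial genes, 2 were higher in colon, the junction gene Esam (1358, 1645 and 983 against 230 and 165, log2 difference 2.73) and the lymphatic hyaluronan receptor gene Lyve1 (225, 219 and 274 against 21 and 51, log2 difference 2.81). The other 2 calls were lower, the tight junction gene Cldn5 (20, 10 and 17 against 124 and 135, log2 difference -3.03), whose call held, and Madcam1, the address molecule for gut-homing lymphocytes (76, 94 and 47 against 382 and 290, log2 difference -2.24). General endothelial genes such as Cdh5 (120, 95 and 159 against 125 and 103) and Kdr did not pass. Of 14 glial and neuronal genes, Tubb3, Ret, Prph and Uchl1 were lower in colon (log2 differences from -2.46 to -1.53) and Nos1 and Gfap were higher (2.29 and 2.57), all of them at low levels.

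Genes of the leukocyte lists were lower in colon where they passed, except Cd14 in the myeloid list. Of 18 T and NK cell genes, 5 were lower and none higher (median -1.26). Cd8b1 was at 5, 3 and 6 in colon and 40 and 48 in small intestine (log2 difference -3.02), and Gzma, a granzyme of intraepithelial lymphocytes, at 39, 34 and 58 against 153 and 258 (log2 difference -2.20). Of 15 B and plasma cell genes, 5 were lower, among them the B cell genes Pax5 and Ms4a1 and the plasma cell chaperone gene Mzb1 (2443, 957 and 913 against 4502 and 4382, log2 difference -1.79). Igha itself did not pass (log2 difference -0.87, SE 0.54). When genes with no opposite-strand neighbour were fitted alone, 0 of 7 T cell genes passed, with 4 lower at an unadjusted p under 0.05, and 2 of 9 B cell genes were lower.

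Myeloid genes did not move together. Outside the lists, and named after its values were seen, Clec4e, a receptor gene of macrophages, was higher in colon at 75.5, 46.5 and 65.1 against 8 and 1.3 (log2 difference 3.77, adjusted p = 0.0026), and its call held. Cx3cr1, the receptor of resident gut macrophages, was at 167, 72 and 62 in colon and 448 and 634 in small intestine (log2 difference -2.54, adjusted p = 0.0042). Itgax, the CD11c gene of dendritic cells and macrophages, was at 85, 54 and 79 against 487 and 638 (log2 difference -2.95, adjusted p = 0.0005), and the pan-leukocyte gene Ptprc was lower too. Cd14, a coreceptor for bacterial lipopolysaccharide, was higher in colon, at 978, 592 and 1010 against 66 and 89 (log2 difference 3.42, adjusted p = 0.00023). The calls of Itgax and Cd14 held. The 3 chains of complement C1q, which are made together by macrophages, gave different values. C1qa was at 873, 346 and 251 against 4905 and 3556 (log2 difference -3.30, adjusted p = 0.0018, and 0.069 without small intestine library 2), whereas C1qb gave -0.80 and C1qc -0.15, both short of the threshold. Within MHC class II, Ciita (9, 21 and 14 against 109 and 195), H2-DMb1 and Cd74 were lower while H2-Aa (10405, 7832 and 11904 against 5620 and 12843) and H2-Ab1 were not.

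The largest positive differences of the whole comparison lay elsewhere, in genes beside abundant genes of the opposite strand. Best1, a bestrophin channel gene (chr19:9985174-10001633), was at 3849.6, 2466.8 and 3598.3 in colon and 1.3 and 7.9 in small intestine, a log2 difference of 9.48 (SE 0.53, adjusted p = 1.3e-06). It lies 76 bases from Fth1, the ferritin heavy chain gene, which had a mean of 3294.9 in colon and 3300.7 in small intestine. Ulk4, a pseudokinase gene, was at 2507, 1866 and 1217.6 against 1.3 and 2.6 (log2 difference 9.27) and overlaps Ctnnb1, the beta-catenin gene, at means of 1900.9 and 2601.8. Cand2 was at 2410.7, 1418.4 and 2615 against 9.3 and 7.9 (log2 difference 7.76) and lies opposite Rpl32, a ribosomal protein gene, at means of 2139.4 and 2676.6. Of the 15 largest positive differences, 13 overlapped an opposite-strand gene and 14 had an opposite-strand gene with a mean of at least 100 within 5000 bases. The exception was Cyp2c55. Of these 15 calls 14 held, all but that of Acat3, which was lost without colon library 2 or 3 (adjusted p up to 0.11).

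**Figure D4:**
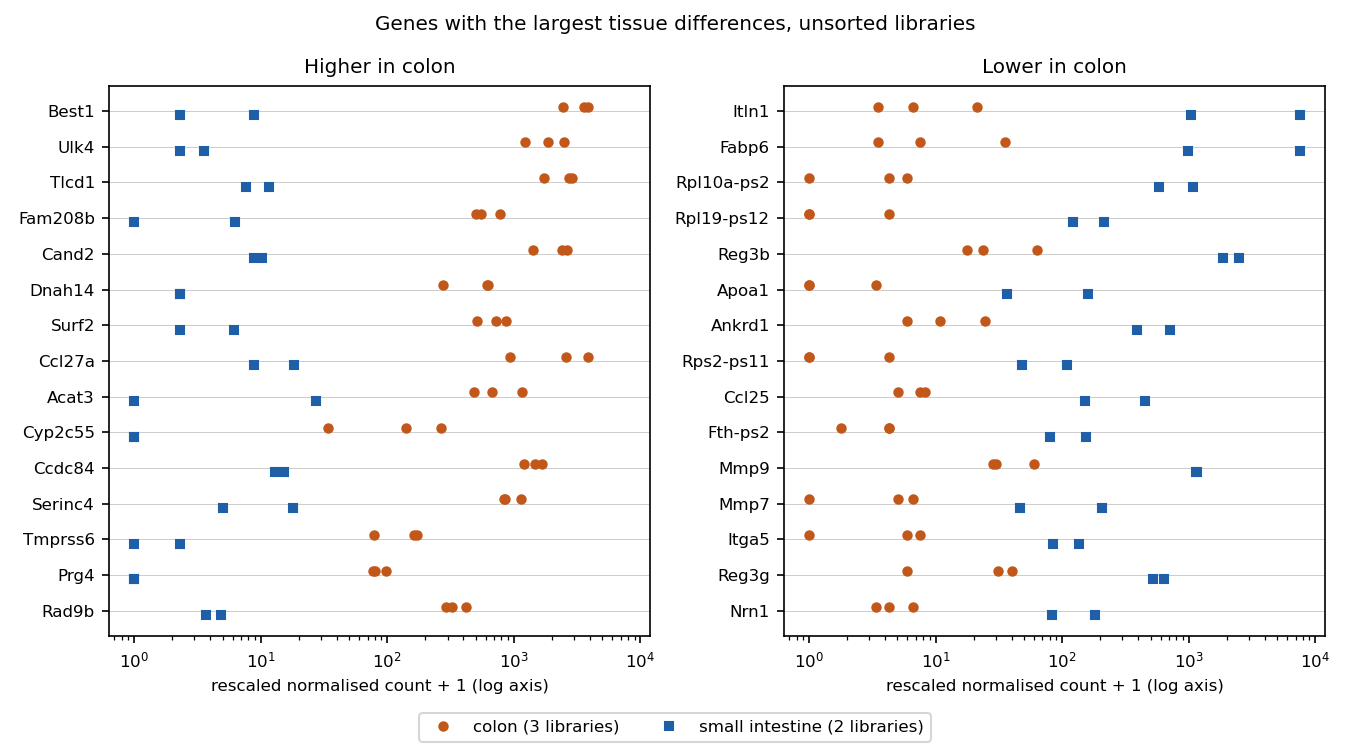
Rescaled counts plus 1 (log axis) in each unsorted library for the 15 genes with the largest positive (left) and 15 with the largest negative (right) log2 differences, with 3 colon and 2 small intestine points per gene. Best1 and Ulk4 sit between 1217.6 and 3849.6 in colon and between 1.3 and 7.9 in small intestine, and Fabp6 and Itln1 show a gap in the other direction.

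The same was measured across all genes. An opposite-strand gene with a mean of at least 100 lay within 5000 bases of 42.3% of the 1132 genes higher in colon, 15% of the 807 lower and 17.1% of the 11625 that did not pass. Among the 131 genes higher by a log2 difference of at least 4 the share was 74.8%, against 8.9% of the 45 genes lower by as much. The sources used here do not say whether the counting used strand in either series of tables, and reads of a gene and its opposite-strand partner then cannot be told apart. The fit was therefore repeated on the 4003 tested protein-coding genes with no opposite-strand gene within 5000 bases, a choice made after these values were seen. There 353 genes (8.82%) passed, 167 higher in colon (4.17%) and 186 lower (4.65%). The part of neighbouring genes in the differences was not tested.

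**Figure D5:**
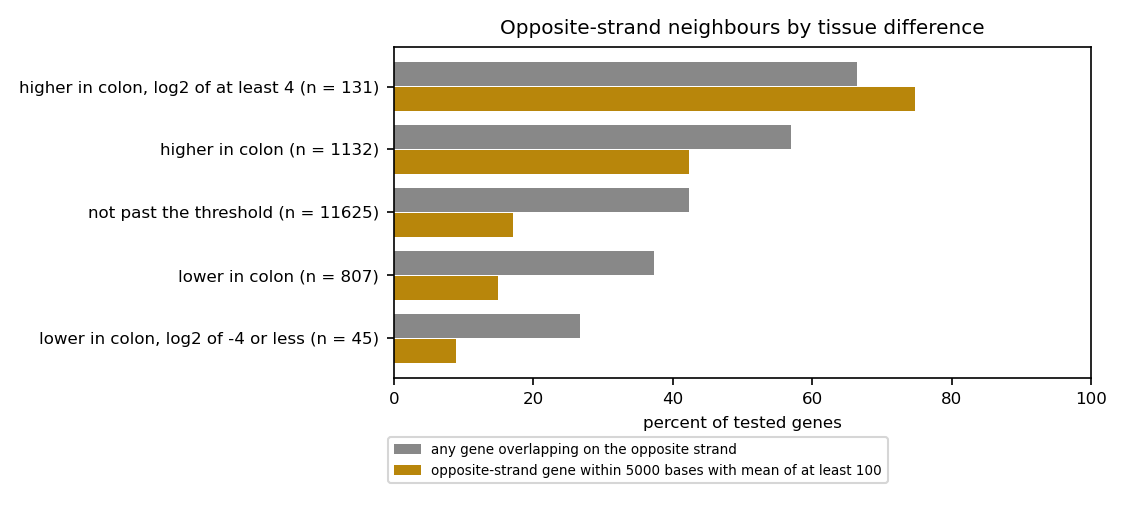
Percentage of tested genes that overlap any opposite-strand gene (grey) and that have, within 5000 bases, an opposite-strand gene with a mean of at least 100 rescaled counts (yellow), for genes grouped by the tissue comparison. The latter share is 74.8% among the genes higher in colon by a log2 difference of at least 4 and between 8.9% and 42.3% in the other groups.

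Several genes described above have no opposite-strand neighbour and also passed in that fit. Those higher in colon were Postn, Col3a1, Tpm1, Esam, Cd14 and Aqp8, and lower were Fabp6, Lyz1, Reg3g, Hoxc8, C1qa and Itgax. Others were named after their values were seen. Akap5, a kinase anchoring protein gene, was at 680.5, 203.8 and 251.3 in colon and 8 and 5.2 in small intestine (log2 difference 5.45), and Retnla, a resistin-like cytokine gene, at 237.3, 234.8 and 403.4 against 10.6 and 18.3 (log2 difference 4.24). Mmp9, a gelatinase gene of inflammatory cells, was at 58.9, 27.7 and 29.3 against 1156.7 and 1148.9 (log2 difference -4.95), and Ankrd1, a stress-responsive muscle and mesenchymal gene, at 5, 23.6 and 9.8 against 392.2 and 704.8 (log2 difference -5.50). These 4 calls held. Of the 15 largest negative differences, 4 were pseudogenes of ribosomal or ferritin genes, whose reads can be divided with their parent genes.

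Some genes could not be compared because they are listed for 1 tissue only. In the tables used, 2881 genes were listed for colon alone, of which 249 had a mean of at least 50, and 998 for small intestine alone, of which 64 did. Their level in the other tissue is unknown. Antisense genes numbered 377 in the first set and 50 in the second, and lincRNAs 288 and 55. Named epithelial examples for colon are Retnlb, a goblet cell defence protein gene, at 44, 703.5 and 1403.1, and Insl5, a hormone gene of colonic endocrine cells, at 0, 135.3 and 84.6. Examples for small intestine are Mptx2, a pentraxin of Paneth cells, at 1233.8 and 273.8, and Fabp1, a fatty acid binding protein gene, at 41.2 and 14.4.

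Some markers of handling and blood also differed and are given as measured. Of 22 dissociation and heat shock genes, 4 were higher in colon and none lower (median 0.34), and none of these calls held. Among all genes tested, 8.35% were higher and 5.95% lower. Nr4a1 was at 5197, 11669 and 10325 against 1306 and 2244 (log2 difference 2.32). Socs3 was at 1282, 1449 and 2076 against 177 and 321 (log2 difference 2.71). The most abundant members, Junb and Jun, did not pass. The summed level of this list overlapped between the tissues, at 90056, 119842 and 104537 in colon and 93798 and 79564 in small intestine. The alpha globins Hba-a1 and Hba-a2 were higher in colon (log2 differences 2.22 and 2.24), with a summed erythroid level of 15878, 10601 and 18952 against 3786 and 4422. All 5 libraries held both Xist, the RNA of the inactive X, and the Y-linked gene Ddx3y. Xist was at 12, 11 and 40 in colon and 169 and 118 in small intestine (log2 difference -2.94, adjusted p = 0.006). The Y-linked gene Uty was lower in colon too, at 20.7, 6.5 and 11.4 against 45.2 and 74.7 (log2 difference -2.22, adjusted p = 0.028, up to 0.23 with a library left out), and the other 3 Y-linked genes had log2 differences of -1.35 to -0.99 and did not pass. The part of handling, blood content or the sex of the mice in the differences above was not tested.

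The GFP-negative cells of each tissue, which share the tables of the unsorted cells, gave a way to ask whether a tissue difference was particular to the unsorted preparation. In the test of the difference between tissues of unsorted minus GFP-negative, 3 of 14041 genes (0.0214%) passed, while 1913 had an unadjusted p under 0.05. Their number was 10 without colon library 1, 1 without colon library 2 and 0 without any other unsorted library. Best1 was at 2723.5, 3125.5 and 2842.3 in GFP-negative colon and 0, 23.5 and 18.6 in GFP-negative small intestine, so that the sorted cells showed the gap too. For the 15 largest positive differences the colon minus small intestine difference of GFP-negative cells ranged from -2.56 to 9.73 with a median of 6.44. Those for the 15 largest negative differences ranged from -10.15 to 1.13 with a median of -2.19. Fabp6 was listed at 0 in all 3 GFP-negative colon libraries and at 1181.7, 2261.8 and 546.9 in GFP-negative small intestine, so Fabp6 RNA was found in the sorted small intestine libraries as well. The colonocyte genes were different. Cyp2c55 was at 0, 2.3 and 12.3 in GFP-negative colon and 44.9, 198.2 and 0 in GFP-negative small intestine, and Aqp8 at 0, 2.3 and 3.8 against 19.2, 7.8 and 0, so their colon minus small intestine differences were -2.56 and -1.16 in these cells. The interaction of neither gene passed (adjusted p = 0.14 for both). The tissue effect of Fabp6 was not shown to differ between unsorted and GFP-negative cells (interaction 2.02, SE 1.27, adjusted p = 0.51).

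Unsorted colon of mice given DSS was compared with the same 2 small intestine libraries, which are shared with the comparison above. Treatment, tissue and library series cannot be told apart in it. The DSS colon libraries carry the numbers 78 to 80 in the labels and those of untreated colon 4 to 6. A difference between DSS and untreated colon therefore cannot be told apart from one between library series. There 2621 of 13063 genes (20.1%) passed, 1557 higher (11.9%) and 1064 lower (8.15%). The share of higher calls was 59.4% as scaled here, 54.5% with equal totals and 49.7% under upper-quartile scaling, and the number of calls was 1406 without small intestine library 2 and 1729 without DSS colon library 2. Side by side, Best1 gave a log2 difference of 10.23 in DSS colon against 9.48 in untreated colon, Fabp6 -8.14 in both, Lyz1 -4.11 against -4.44 and Hoxc8 -4.79 against -4.27. The Reg3 genes stood apart from these. Their DSS colon levels were rescaled with the 2 small intestine libraries alone, a scale other than that of the levels given earlier. Reg3b was at 3059.1, 2541.4 and 3037 in DSS colon. By its log2 difference (0.69, limma adjusted p = 0.16) it lay close to its small intestine level. In untreated colon, on the earlier scale, it was far lower at 16.6 to 62. Reg3g was at 413.5, 535.7 and 456.2 (log2 difference -0.02). Among the muscle and matrix genes, Myh11 gave a log2 difference of 1.40 in DSS colon against 4.07 in untreated colon, Postn 2.16 against 4.33 and Col3a1 3.06 against 3.21.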

How the data were processed

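Intestinal cells were profiled by 3' RNA sequencing (QuantSeq) on an Ion Proton from RNA with an integrity number above 7, per the labels' protocols. TopHat2, Bowtie2, DESeq and mm10 are named, without role or order, in the submitters' processing notes, and whether counting used strand is not given in the sources used here. The deposited values are a score: the authors' normalised counts rounded to whole numbers, scaled separately in each table, so count models were not used. Columns were joined on gene identifier (14860 genes), rescaled by median ratio, and 1 was added before taking log2. Genes whose mean reached 10 in either group were fitted with limma (version 3.58.1, under R 4.3.3), using its trend and robust options. P-values were Benjamini-Hochberg adjusted over all genes tested at a threshold of 0.05, and the script was tested on simulated data. Reads per library were estimated from the spacing of low values, by a procedure adjusted after its first results were seen, and their number bounds the precision of low genes.

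Named were Agr2, Fabp6 and Actg2, the 15 largest differences each way among called genes without overlap and with a mean of at least 50 (leaving out symbols of the Gm and Rik series), and up to 6 members of each of 36 gene lists, 3 by level and 3 by difference. Members of a list that stand against it could be added. The members and lists were chosen with earlier results of these data known. Coordinates are those of the tables in mm10. Opposite-strand neighbours came from GENCODE release 21 of the mouse, in which 19557 of 19631 genes were found by identifier, all on the same chromosome and strand. Promoters came from RefSeq. Alternatives covered scaling, the added count, the filter, limma's options, a fold requirement, the replicate block, the source table, each library left out and, added after the data were seen, genes without opposite-strand neighbours and genes of any table.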

Additional observations from a re-analysis of the deposited data

Results flagged for a closer look

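In the test of whether unsorted minus GFP-negative differed between the tissues, 3 genes had effects in colon and small intestine that differed from each other at an adjusted p of 0.05 (limma). Osr2, a transcription factor gene of mesenchyme (chr15:35296098-35303304), was at 8.7, 40.1 and 13.5 rescaled counts in unsorted colon and 41, 48.3 and 39.9 in GFP-negative colon. In small intestine it was at 109.3 and 104.6 in unsorted cells and listed at 0 in all 3 GFP-negative libraries, a difference of -8.04 (SE 0.95, adjusted p = 0.0095). Hk3, a hexokinase gene (chr13:55005985-55021385), was at 66.3, 69.2 and 67.7 in unsorted and 358.6, 198.7 and 174.3 in GFP-negative colon. In unsorted small intestine Hk3 was at 14.1 and 29, with a difference of -6.17 (SE 0.76, adjusted p = 0.0095). Arhgef39 (chr4:43496142-43499695) was at 100.3, 107 and 85.2 in unsorted and 63.4, 63.9 and 59.1 in GFP-negative colon, and at 47.6 and 42.9 in unsorted small intestine, with a difference of -4.89 (SE 0.71, adjusted p = 0.04). All 3 genes were listed at 0 in every GFP-negative small intestine library, so the fitted sizes depend on the count of 1 added before the logarithm and are no bounds. This test called 0 genes without colon library 3, and 0 of 4150 among genes with no opposite-strand gene within 5000 bases.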

How the results depend on the processing

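The number of calls between unsorted colon and small intestine was 1939, and lay between 1441 and 2034 under the other scalings, filters, added count, fold requirement, source tables and limma options tried, with 1997 and 2023 for the scalings and 2005 for genes of any table. It was 3057 with the replicate block and 353 of 4003 among genes without opposite-strand neighbours, and leaving out 1 library gave 402 to 2841. No paired sampling is shown by the labels, and colon replicate 1 has no partner. Deviations of the same-numbered libraries correlated at 0.109 (number 2) and 0.04 (number 3). With only 2 small intestine libraries, their deviations mirror each other, so these correlations cannot show whether sampling was paired. The difference between tissues of unsorted minus GFP-negative gave 3 genes, 18 with 5 added before the logarithm, 25 without limma's trend and robust options, 2 with the replicate block and 0 of 4150 among genes without opposite-strand neighbours, where 556 had an unadjusted p under 0.05. Leaving out 1 unsorted library gave 0 to 10. DSS colon against small intestine gave 2621 genes, 2637 with the replicate block, 642 without opposite-strand neighbours and 1406 to 2521 with 1 library left out. No named gene reversed under any alternative. Of 104 that passed, 6 lost their call with equal totals, 15 without trend and robust options and 3 with the replicate block. The cause of these changes was not tested, apart from the fewer genes or libraries that some fits use. Small intestine rests on 2 libraries, and genes near 10 rescaled counts rest on few reads.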

Other observations

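Among 24 interferon-stimulated genes tested, 17 had a positive difference, and the median was 0.47 against 0.024 for all genes. Of the 24, 4 passed as higher in colon and 1 as lower. Over all genes tested, 8.35% were higher and 5.95% were lower. In the fit of genes with no opposite-strand gene within 5000 bases, 1 of 12 was higher and 1 was lower. Iigp1, an interferon-induced GTPase gene, was at 900, 1061 and 1087 rescaled counts in colon and 198 and 266 in small intestine (log2 difference 2.14, adjusted p = 0.0045), and the chemokine gene Cxcl10 was at 801, 380 and 1560 against 189 and 170 (log2 difference 2.12, adjusted p = 0.023). Bst2, the gene of the antiviral protein tetherin, was lower in colon, at 184, 101 and 118 against 685 and 866 (log2 difference -2.56, adjusted p = 0.0018). Isg15 did not pass, at 452, 163 and 296 against 330 and 214. All adjusted p values here are limma's over all genes tested.

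Proliferation genes gave calls in both directions. Over all genes tested, 8.35% were higher in colon and 5.95% were lower. Of 25 cell cycle genes, Mki67 (7, 46 and 21 in colon, 96 and 94 in small intestine, log2 difference -2.26) and Ube2c (59, 68 and 46 against 271 and 138, log2 difference -1.75) were lower in colon. Pcna, the sliding clamp of DNA replication, was higher, at 831, 731 and 954 against 241 and 343 (log2 difference 1.53). The median of the list was -0.74. Ada, the adenosine deaminase gene, was higher in colon at 199, 238 and 244 against 27 and 10 (log2 difference 3.67, adjusted p = 0.00027). Its call held whichever of the 5 libraries was left out, and it lies near the opposite-strand gene Pkig, at means of 243.1 and 341.7.

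Some genes of other organs were also found. Sycn, a gene of pancreatic zymogen granules that colon also expresses, was listed in colon tables only, at 61.4, 2580.1 and 1224.9, which is lowest in the colon library poorest in epithelial RNA. Of 20 pancreatic acinar genes 3 were tested, and Ctrl (79, 54 and 50 against 0 and 7, log2 difference 4.46), whose call also held, and Cela1 (41, 180 and 148 against 31 and 17, log2 difference 2.13) were higher in colon. The third, Zg16, which goblet cells also express, did not pass, at 170.1, 1986.6 and 1174.5 against 3795.7 and 1169.9 (log2 difference -1.52). The summed level of the 4 acinar genes shared by the tables was 301, 2221 and 1375 in colon and 3828 and 1196 in small intestine.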
